A study of Mus musculus with 16 samples.

Results

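The tachykinin genes of the mouse striatum were examined in RNA-seq counts from 16 male mice aged 14 weeks. The set holds 4 genes of the 55450 in the table, the precursors Tac1 and Tac2 and the receptors Tacr1 and Tacr3. They were chosen by name, with the condition that a gene reach 10 counts in at least 4 of the 16 libraries, and all 4 met it. The family has 2 more genes, Tac4 and Tacr2, which did not meet it. The mice carried the R6/1 transgene or were wild-type (wt) littermates on a C57Bl/6 background (C57BL/6 J in the study's methods). R6/1 mice are a model of Huntington’s disease that carries exon 1 of the human huntingtin gene with an expanded CAG repeat, and the striatum is the brain area most affected in that disease. Within each genotype, 4 mice had been classed as “good” and 4 as “poor” performers from behaviour (rotarod, feet clasping) and body weight, which gives the groups wt “good”, wt “poor”, R6/1 “good” and R6/1 “poor”. The mice were selected from the ends of the range of performance and do not represent the average animal. Each library is described as the striatum of 1 mouse. The sample descriptions of wt “good” mice 1 and 2 share a number, with a letter added to the second, and do not say whether they are separate animals.

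Tachykinins are short neuropeptides that share the end of their sequence. They are cut from larger precursors, amidated and stored in dense-core vesicles. Tac1 encodes substance P and neurokinin A, and Tac2 encodes neurokinin B. Substance P acts mainly on the receptor made by Tacr1 and neurokinin B on the one made by Tacr3, and both receptors signal through Gq proteins and phospholipase C. In the striatum Tac1 is a classical gene of the medium spiny neurons of the direct pathway, which also make the dopamine receptor Drd1 and prodynorphin (Pdyn), whereas Tacr1 is found on cholinergic and somatostatin interneurons.

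The coding sequence of the 3 peptides is shown because it is what ties the precursors into a single family. The sequences were read from GENCODE M21 transcripts on GRCm38, plus strand, 5′ to 3′. Capitals mark the 15 bases for the shared end of the peptide, and the bases after them code for the glycine that gives the amide and for the basic pair where the precursor is cut. Substance P lies in exon 3 of Tac1 (chr6:7556732-7556773), neurokinin A in exon 6 of transcript Tac1-205 (chr6:7559101-7559139) and neurokinin B in exon 5 of transcript Tac2-201 (chr10:127729116-127729154).
substance P: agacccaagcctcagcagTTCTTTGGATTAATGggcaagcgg
neurokinin A: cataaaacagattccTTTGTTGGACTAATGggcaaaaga
neurokinin B: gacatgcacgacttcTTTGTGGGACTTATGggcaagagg
Neurokinin A and neurokinin B, from different genes, are identical at 13 of the 15 capital bases. Neurokinin A and substance P, from the same gene, are identical at 12, and neurokinin B and substance P at 10. Of the 4 annotated coding transcripts of Tac1, 3 hold substance P and 2 hold neurokinin A, while both coding transcripts of Tac2 hold neurokinin B. The counts are summed per gene, so the share of Tac1 reads from transcripts with or without neurokinin A was not measured.

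The genes lie apart from each other except that Tac1 and Tacr1 share a chromosome (GRCm38). Tac1 (ENSMUSG00000061762) is at chr6:7554879-7565834 and Tacr1 (ENSMUSG00000030043) at chr6:82402334-82560104. Tac2 (ENSMUSG00000025400) is at chr10:127724478-127731768 and Tacr3 (ENSMUSG00000028172) at chr3:134829007-134934579. No other annotated gene overlaps any of them on either strand.

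Levels are given as CPM, the count of a gene relative to its library's size after TMM scaling, and between genes as CPM per kilobase of exon. Per kilobase, Tac1 was the highest of the family in wild-type mice at 67.6 ± 11.9 (SD, n = 8). Tacr1 followed at 6.75 ± 1.39, Tac2 at 4.92 ± 3.398 and Tacr3 at 3.17 ± 0.678 CPM per kilobase. Tac1 lay above the other genes in every library, and Tacr1 above Tacr3 in every wild-type mouse, whereas the wide range of Tac2 overlapped with those of both receptors. In R6/1 mice the values per kilobase were 49.7 ± 12.4 for Tac1, 4.24 ± 3.87 for Tac2, 2.69 ± 0.445 for Tacr1 and 1.99 ± 0.841 for Tacr3 (SD, n = 8). Tac4, the precursor of hemokinin, had 0 to 3 counts per library, and Tacr2, the neurokinin A receptor, had 0 to 5. With so few reads no fold is given for either gene, and their mRNA was at the limit of what this depth can show.

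The libraries held 16155356 to 24897354 counts each, with a median of 20889934. Their running numbers divide the mice unevenly. All 4 R6/1 “good” mice and R6/1 “poor” mouse 2 are among libraries 1 to 8, which held 16155356 to 20250680 counts, and the other R6/1 “poor” mice are among libraries 9 to 16, which held 21529188 to 24897354. The 7 markers of medium spiny neurons of both pathways summed to 4983 to 7967 CPM in wild-type and 1333 to 3203 CPM in R6/1 mice, with none at 0 and all 7 lower in R6/1 mice, where edgeR called 34.2% of all genes in either direction, 17% lower and 17.2% higher. Markers of neighbouring tissue were present in unequal amount. The summed level of 5 cortical markers ran from 9.50 to 735 CPM between mice, and that of 5 thalamic markers from 20.3 to 271 CPM. Of 8 markers of glia and vessels, 6 were lower in R6/1 mice (edgeR, 17% of all genes lower), with a median log2 fold change of -0.36.

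Tac1 was lower in R6/1 than in wild-type mice, and lowest in the R6/1 “poor” group. Wild-type “good” mice had 223, 322, 242 and 188.5 CPM, and wild-type “poor” mice 231, 218, 210 and 205. R6/1 “good” mice had 188, 229, 156 and 229 CPM, and R6/1 “poor” mice 118, 145, 132 and 154. Every R6/1 “poor” mouse therefore lay below every mouse of the other 3 groups, while R6/1 “good” mice overlapped with both wild-type groups. Over all mice the log2 fold change of R6/1 against wild-type was -0.44 ± 0.14 (SE, 8 against 8 mice, edgeR adjusted p = 0.0197), a fold of 0.735. With no filter on low counts it was -0.43 with an adjusted p of 0.0618. In these whole-tissue samples, fewer cells of a type and less RNA per cell cannot be told apart.

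Set against the 8 wild-type mice, Tac1 fell in R6/1 “poor” mice by 0.74 ± 0.12 on the log2 scale (edgeR adjusted p = 0.0006). In R6/1 “good” mice the log2 fold change was -0.20 ± 0.13 (edgeR adjusted p = 0.308). Directly between the R6/1 groups it was -0.53 ± 0.13 with a 95% interval of -0.81 to -0.25, which had an unadjusted p of 0.0019 in the edgeR fit but an adjusted p of 0.248. DESeq2, with the same fold change, gave an adjusted p of 0.0142. Within libraries 1 to 8 the value was -0.45 ± 0.21 with 1 R6/1 “poor” mouse against 4 “good” mice (edgeR adjusted p = 1). Between wild-type “poor” and “good” mice Tac1 stood at -0.17 ± 0.14, and the difference between the genotypes in this effect of performance was -0.37 ± 0.20 (edgeR adjusted p = 0.826). The fall of Tac1 over all R6/1 mice was not seen at the same size in the 2 sets of libraries: it was -0.19 ± 0.16 (edgeR adjusted p = 0.441) within libraries 1 to 8, which hold the “good” mice, and -0.83 ± 0.16 (edgeR adjusted p = 0.00805) within libraries 9 to 16, where all 3 R6/1 mice are “poor”. The difference between the sets was not tested. Within the 8 R6/1 mice log2 Tac1 followed the direct-pathway, indirect-pathway and both-pathway marker sums of medium spiny neurons, with correlations of 0.96, 0.95 and 0.96. Within the 8 wild-type mice these were 0.80, 0.67 and 0.63. Among the R6/1 mice Tac1 ran against markers of neighbouring tissue. The correlations were -0.84 for the thalamic, -0.83 for the lateral septal and -0.78 for the hypothalamic sum, and -0.06, -0.13 and -0.09 within the 8 wild-type mice. Those sums reached their highest values in R6/1 “poor” mice, at 271, 201 and 51.9 CPM, and their part in the Tac1 values was not tested.

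**Figure D1:**
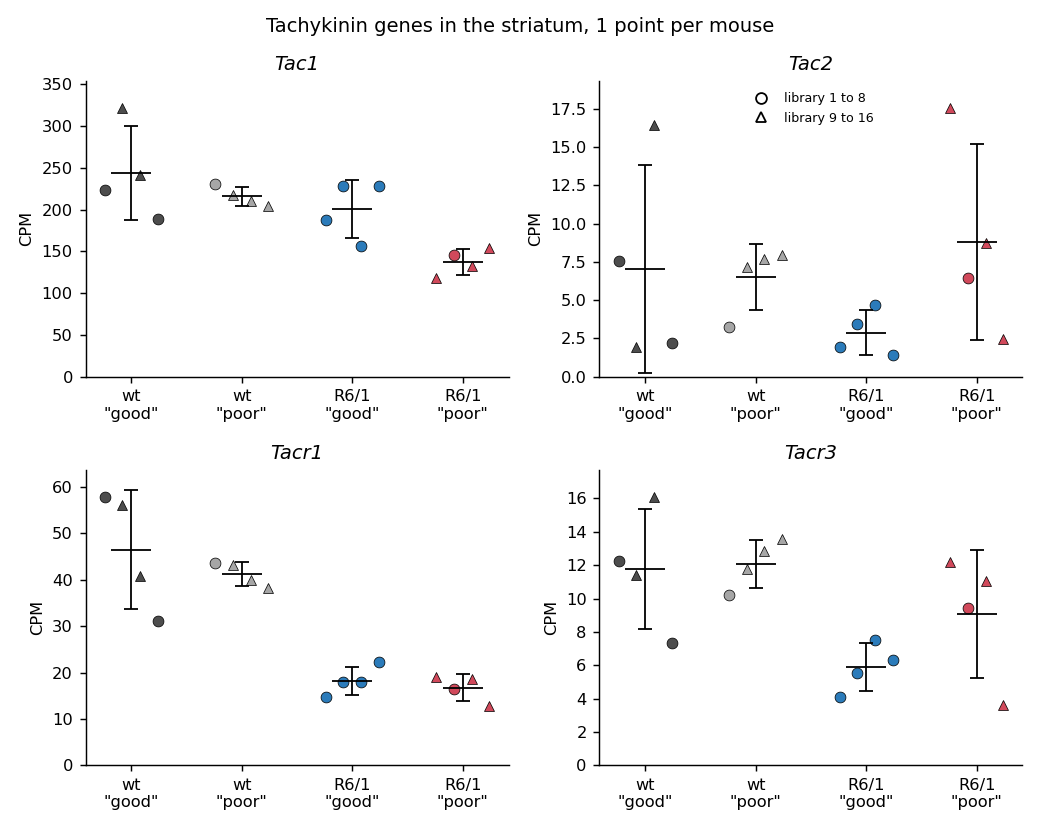
CPM of Tac1, Tac2, Tacr1 and Tacr3 in each of the 16 mice, by group (4 mice each), with bars for the mean ± SD, circles for libraries 1 to 8 and triangles for libraries 9 to 16. The R6/1 “poor” mice lie between 118 and 154 CPM for Tac1, below all other mice, and for Tacr1 all R6/1 mice lie at or below 22.3 CPM while all wild-type mice lie at or above 31.0.

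Tac1 fell less than Penk, Drd1 and Pdyn, which medium spiny neurons also make. Other direct-pathway markers, Sfxn1, Ebf1, Isl1 and Eya1, stood above Tac1, as given below, and no ratio to them was taken. Penk, the enkephalin precursor of the indirect pathway, fell by 2.32 ± 0.14 on the log2 scale (edgeR adjusted p = 2.34e-08). Drd1 stood at -1.39 ± 0.17 (1.07e-05) and Pdyn, the dynorphin precursor made beside Tac1 in the direct pathway, at -1.03 ± 0.15 (6.09e-05). The difference of Tac1 from Penk, Drd1 and Pdyn was tested as a ratio within each library, which does not depend on the scaling of libraries. These comparator genes were picked after their values had been seen, so the p-values are not independent evidence. They do not measure the size of the separation either, which is given by the log2 differences.

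The ratio of Tac1 to Pdyn was 1.28 to 1.76 in the wild-type mice, with a median of 1.504, and 1.85 to 3.09 in the R6/1 mice, with a median of 2.35. The 2 genotypes did not overlap, and the mean log2 ratio was 0.59 higher in R6/1 mice (exact permutation test, two-sided, p = 0.000155, the smallest that 12870 splits can give, adjusted over 5 ratios 0.000194). The ratio of Tac1 to Drd1 went from 0.690 to 1.08 in wild-type mice to 1.41 to 1.78 in R6/1 mice, a log2 difference of 0.97 with the same p. The ratio of Tac1 to Penk went from 0.122 to 0.172 in wild-type mice to 0.4999 to 0.617 in R6/1 mice, a log2 difference of 1.87, again with the same p. The log2 differences held within each set of libraries, at 0.53 and 0.73 for Pdyn, 1.03 and 0.99 for Drd1, and 1.99 and 1.82 for Penk. The ratio to Penk was 0.562 ± 0.0455 in R6/1 “good” and 0.556 ± 0.0462 in R6/1 “poor” mice (SD, n = 4 each), a difference smaller than either SD.

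Tac2, the precursor of neurokinin B, was the most variable member and passed no test. Wild-type “good” mice had 7.57, 1.94, 16.5 and 2.20 CPM, and wild-type “poor” mice 3.28, 7.15, 7.67 and 7.96. R6/1 “good” mice had 1.91, 3.43, 4.67 and 1.45 CPM, and R6/1 “poor” mice 17.6, 6.42, 8.76 and 2.50. All 4 groups overlapped, and the 2 highest libraries were of different genotypes, wt “good” mouse 3 and R6/1 “poor” mouse 1. The counts behind these values were 29 to 411 per library. The log2 fold change of the 8 R6/1 against the 8 wild-type mice was -0.21 ± 0.52 with a 95% interval of -1.31 to 0.89 (edgeR adjusted p = 0.786), and it turned to 0.11 without wt “good” mouse 3 and stood at -0.70 without R6/1 “poor” mouse 1. It was -1.26 ± 0.58 in R6/1 “good” mice (edgeR adjusted p = 0.138) and 0.37 ± 0.57 in R6/1 “poor” mice (edgeR adjusted p = 0.666), both against wild-type mice. Without R6/1 “poor” mouse 1 the latter was -0.21. R6/1 “poor” mice exceeded R6/1 “good” mice by 1.64 ± 0.60 (unadjusted p = 0.0258 in the edgeR fit, adjusted p = 0.282), and the wild-type “poor” mice stood at -0.11 ± 0.68 from the wild-type “good” mice.

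Tac2 followed the hypothalamic, septal, thalamic and choroid plexus marker sums and, less closely, the cholinergic sum, but not the cortical or habenular sum. Neurons that make Tac2 are known from the hypothalamus and the medial habenula. The summed level of 14 hypothalamic markers was 9.60 to 19.8 CPM in wt “good”, 10.49 to 20.3 in wt “poor”, 6.13 to 10.05 in R6/1 “good” and 6.87 to 51.9 in R6/1 “poor” mice. R6/1 “poor” mouse 1, the library with the most Tac2, was also the highest in this sum, and R6/1 “poor” mouse 4, the lowest of its group in Tac2, was the lowest of its group here. Wt “good” mouse 3, the second library in Tac2, had the highest sum of its group. Of the 14 markers, 1 to 7 were at 0 in a library, and Kiss1, the kisspeptin precursor made beside Tac2 in the hypothalamus, was at 0 in all 16. Avp, the vasopressin precursor, was at 2.82, 1.45, 2.27 and 0 CPM in R6/1 “poor” mice and at or below 0.175 in R6/1 “good” mice, with up to 1.60 in wild-type mice. The sum of 4 lateral septal markers was 33.5 to 70.04 CPM in R6/1 “good” and 30.4 to 201 in R6/1 “poor” mice, against 35.3 to 87.9 in wild-type mice, and none of these markers was at 0 in any library.

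As a description over mice, log2 Tac2 and the log2 hypothalamic sum had a Pearson correlation of 0.63 among the 8 wild-type and 0.94 among the 8 R6/1 mice. For the lateral septal sum the values were 0.59 and 0.93, and for the thalamic sum 0.59 and 0.92. The choroid plexus sum had 0.64 and 0.72, and the cholinergic sum 0.54 and 0.66. For the medial habenula sum they were -0.28 and 0.34, and for the cortical sum -0.20 and -0.24. The habenular sum could rest on a single gene, as in wt “good” mouse 4, where Nwd2 held 38.0 of 40.0 CPM. Gpr151, Chrna3, Pou4f1 and Chrnb4 were each highest in R6/1 “poor” mouse 1, the library with the most Tac2. They stood there at 9.66, 5.30, 4.79 and 2.74 CPM. Of the tested markers, 2 of 5 habenular (Pou4f1 at 4.65 ± 0.60 and Gpr151 at 1.61 ± 0.40) and 1 of 4 septal ones (Trpc4 at 0.53 ± 0.19) were higher in R6/1 mice by edgeR, with 17.2% of all genes higher. Of 5 thalamic markers 1 was lower (Tnnt1, -1.16 ± 0.37), and 0 of 5 cortical and 0 of 4 choroid plexus markers were called, with 0 and 1 at an unadjusted p under 0.05. Over all genes 17% were lower and 34.2% called either way, with 8389 of 19363 at an unadjusted p under 0.05. Depth and library number differ between these mice too. Of 8 hypothalamic markers tested in R6/1 against wild-type mice edgeR called 0. An unadjusted p under 0.05 was held by 3 of them, beside 8389 of all 19363 genes. In R6/1 “poor” against “good” mice it also called 0 of these markers, and 0 of all genes. There 4 markers had an unadjusted p under 0.05, beside 3000 of all 19363 genes, and all 8 were above 0 with a median of 2.42. Against wild-type mice, Otp (2.997 ± 0.868, edgeR adjusted p = 0.0212) and Sim1 (3.21 ± 1.00, 0.0299), transcription factors of hypothalamic neurons, were the 2 of 8 higher in R6/1 “poor” mice, where 13.5% of all genes were higher. In R6/1 “good” mice 1 of 8 was lower, Trh (-1.27 ± 0.21, 0.000625), the precursor of thyrotropin-releasing hormone, where 12.4% of all genes were lower. The part of neighbouring tissue in the Tac2 values was not tested.

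**Figure D2:**
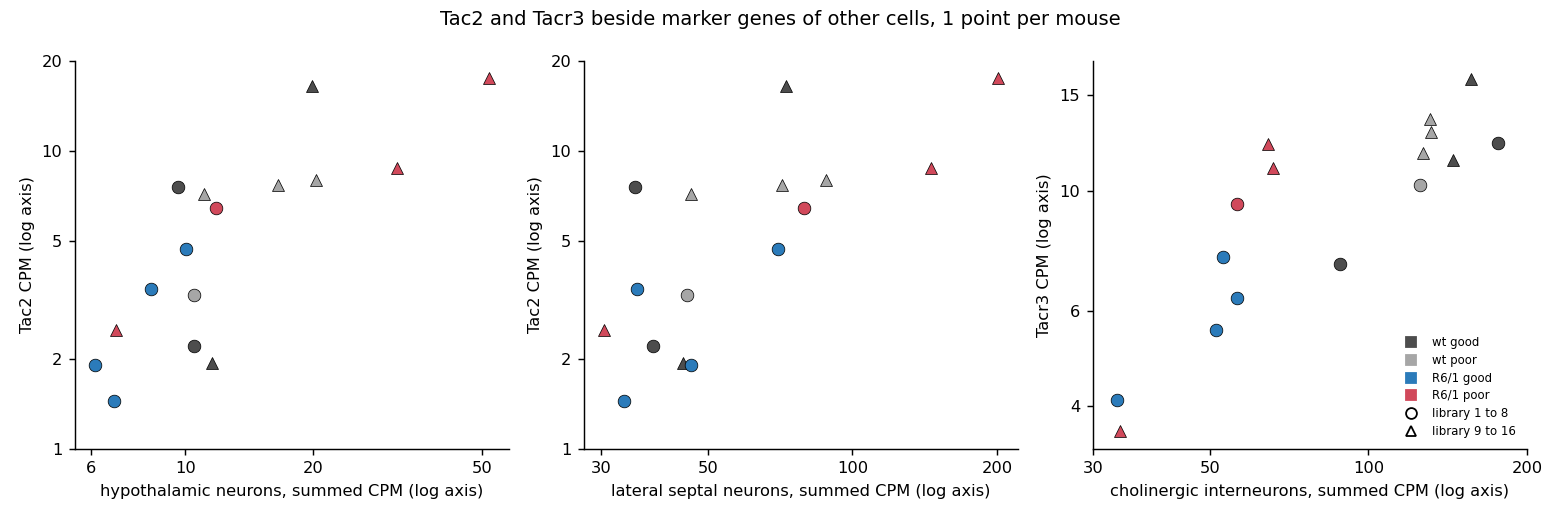
Tac2 against the summed CPM of 14 hypothalamic and of 4 lateral septal markers, and Tacr3 against the summed CPM of 6 cholinergic markers, 1 point per mouse on log axes, coloured by group. R6/1 “poor” mouse 1 is at the upper right of both Tac2 panels with 17.6 CPM, and in the panel of Tacr3 the R6/1 mice lie to the left of the wild-type mice, at 33.3 to 65.9 CPM of cholinergic markers.

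Tacr1, the substance P receptor, had the largest change of the family between the genotypes. Wild-type “good” mice had 57.9, 56.0, 40.7 and 31.0 CPM, and wild-type “poor” mice 43.6, 43.2, 40.0 and 38.2. R6/1 “good” mice had 14.8, 17.9, 17.9 and 22.3 CPM, and R6/1 “poor” mice 19.1, 16.4, 18.6 and 12.7. The lowest wild-type mouse lay above the highest R6/1 mouse, and the 2 R6/1 groups overlapped. Over all mice Tacr1 fell by 1.33 ± 0.12 on the log2 scale (SE, edgeR adjusted p = 6.85e-07), a fold of 0.398.

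The fall of Tacr1 was of like size in both R6/1 groups. It was -1.27 ± 0.16 in R6/1 “good” mice (edgeR adjusted p = 0.000107) and -1.39 ± 0.16 in R6/1 “poor” mice (edgeR adjusted p = 5.81e-05), each against the same 8 wild-type mice. Between R6/1 “poor” and “good” mice the log2 fold change was -0.11 ± 0.15 with a 95% interval of -0.44 to 0.23 (edgeR adjusted p = 0.749). It was -0.17 ± 0.17 between the wild-type groups, and the difference between genotypes in this effect was 0.05 ± 0.25 (edgeR adjusted p = 0.98). Within libraries 1 to 8 and 9 to 16 the fall over all mice was -1.32 ± 0.19 and -1.37 ± 0.17 (edgeR adjusted p = 0.00196 and 0.00132).

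Genes of cholinergic interneurons fell as well. Of 6 such markers, 5 were lower in R6/1 mice by edgeR, against 17% of all genes, among them Chat (choline acetyltransferase, -1.75 ± 0.17, adjusted p = 7.74e-07), the vesicular glutamate transporter Slc17a8 (-1.59 ± 0.15, 6.85e-07) and the choline transporter Slc5a7 (-1.42 ± 0.17, 9.07e-06). Their median was -1.37, against 0.02 for all genes tested. The summed level of the 6 markers was 88.2 to 176 CPM in wild-type and 33.3 to 65.9 CPM in R6/1 mice, with none at 0 in any library. Of 4 somatostatin interneuron markers, 3 were lower, again against 17% of all genes, with Nos1 at -0.79 ± 0.08 (adjusted p = 2.03e-06), Sst at -0.79 ± 0.09 (2.59e-06) and Npy at -0.88 ± 0.15 (0.000302).

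Within each genotype log2 Tacr1 had a correlation of 0.81 with the cholinergic sum. Among wild-type mice this was not the highest. The sum of the peptidases given below had 0.92, the indirect-pathway sum 0.88 and the sum of both pathways 0.85. Among R6/1 mice these had 0.50, 0.26 and 0.15. With the somatostatin interneuron sum the values were -0.49 among wild-type and -0.35 among R6/1 mice. With the cortical sum, which overlapped between the groups, they were -0.76 and -0.90. The part of cortical tissue in the spread of Tacr1 was not tested.

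Tacr1 fell less than Chat, which itself fell more than the median of the 6 cholinergic markers. That median was -1.37, with Tacr1 near it at -1.33. Ratios of Tacr1 to the other cholinergic markers were not tested. The ratio of Tacr1 to Chat was 1.35 to 2.01 in wild-type mice and 1.76 to 3.02 in R6/1 mice, with medians of 1.74 and 2.32. The genotypes overlapped here, with 6 of the 8 R6/1 mice above every wild-type mouse, and the mean log2 ratio was 0.45 higher in R6/1 mice (exact permutation test, two-sided, p = 0.00155, adjusted over 5 ratios 0.00155). The differences were 0.46 within libraries 1 to 8 and 0.39 within libraries 9 to 16.

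**Figure D3:**
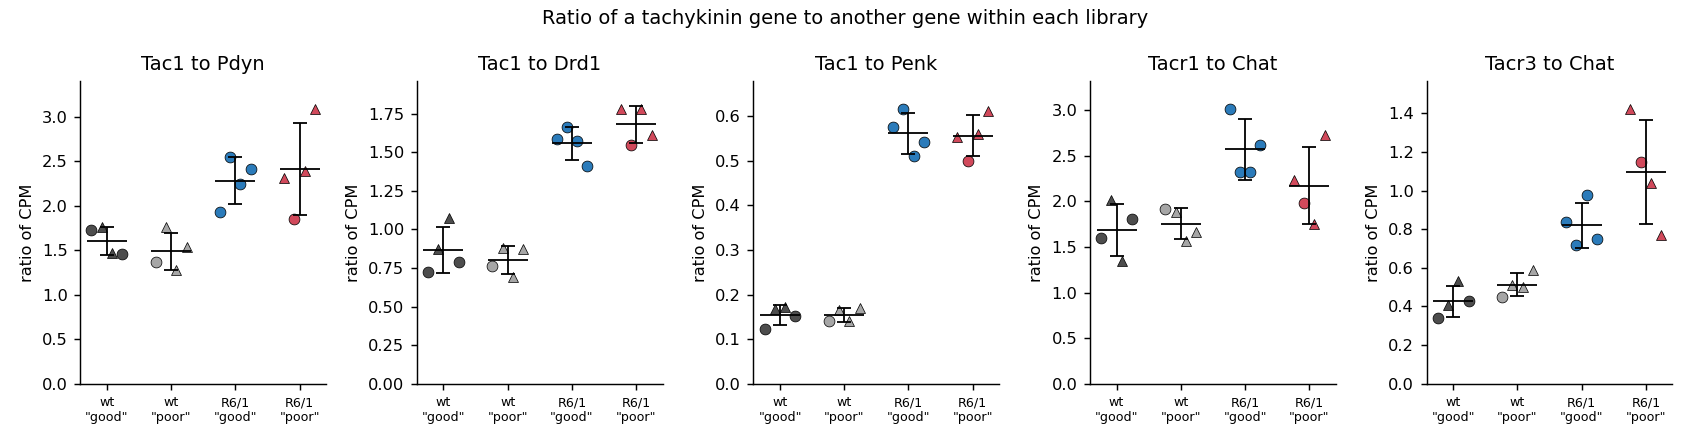
Ratio of the CPM of a tachykinin gene to that of another gene in the same library, for each of the 16 mice by group, with mean ± SD, circles for libraries 1 to 8 and triangles for libraries 9 to 16. The ratios of Tac1 to Pdyn, Drd1 and Penk and of Tacr3 to Chat are higher in every R6/1 mouse than in every wild-type mouse, and those of Tacr1 to Chat are higher in 6 of 8.

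Tacr3, the neurokinin B receptor, was lower in R6/1 mice, with R6/1 “good” mice lowest. Wild-type “good” mice had 12.3, 11.4, 16.1 and 7.31 CPM, and wild-type “poor” mice 10.2, 11.7, 12.8 and 13.6. R6/1 “good” mice had 4.12, 5.54, 7.54 and 6.34 CPM, and R6/1 “poor” mice 12.2, 9.46, 11.03 and 3.60. Of the R6/1 “good” mice only mouse 3 reached the lowest wild-type mouse, while 3 of the 4 R6/1 “poor” mice lay within the wild-type range and mouse 4 had the lowest value of all. Over all mice the log2 fold change was -0.67 ± 0.23 (edgeR adjusted p = 0.0296), a fold of 0.627. With no filter on low counts it was -0.66 with an adjusted p of 0.0967. The call was also lost, with an adjusted p of 0.0529 to 0.0586, without wt “good” mouse 3, R6/1 “good” mouse 1 or R6/1 “good” mouse 2, where the log2 fold changes were -0.60, -0.58 and -0.62.

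In R6/1 “good” mice Tacr3 fell by 1.02 ± 0.19 on the log2 scale (edgeR adjusted p = 0.00138), a fold of 0.492, and the call held within libraries 1 to 8 at -0.77 ± 0.23 (0.0463). In R6/1 “poor” mice it stood at -0.40 ± 0.26 (edgeR adjusted p = 0.281). The test between the R6/1 groups gave 0.64 ± 0.35 with a 95% interval of -0.15 to 1.43 (edgeR adjusted p = 0.394), so the groups are not shown to differ. In wild-type mice the difference of “poor” from “good” mice was 0.04 ± 0.20, and the interaction was 0.59 ± 0.43 (edgeR adjusted p = 0.834).

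Tacr3 moved with cholinergic markers and with those of several neighbouring tissues. With the 6 cholinergic markers its log2 correlation was 0.79 among the 8 wild-type and 0.92 among the 8 R6/1 mice, and with the 14 hypothalamic markers 0.69 and 0.86. It was 0.66 and 0.89 with the lateral septal, 0.65 and 0.81 with the thalamic, 0.52 and 0.64 with the choroid plexus and -0.34 and -0.62 with the cortical markers. R6/1 “poor” mouse 4, with 3.60 CPM of Tacr3, had 33.7 CPM of the cholinergic and 6.87 CPM of the hypothalamic markers, in both cases the lowest of its group. The part of any of these sources in the Tacr3 values was not tested. The ratio of Tacr3 to Chat was 0.339 to 0.590 in wild-type and 0.720 to 1.43 in R6/1 mice, without overlap. The mean log2 ratio was 1.01 higher in R6/1 mice (exact permutation test, two-sided, p = 0.000155, adjusted over 5 ratios 0.000194). Within the 2 sets of libraries it was 1.12 and 1.05 higher. Chat fell more than the median of the 6 cholinergic markers, and ratios of Tacr3 to the others were not tested.

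**Figure D4:**
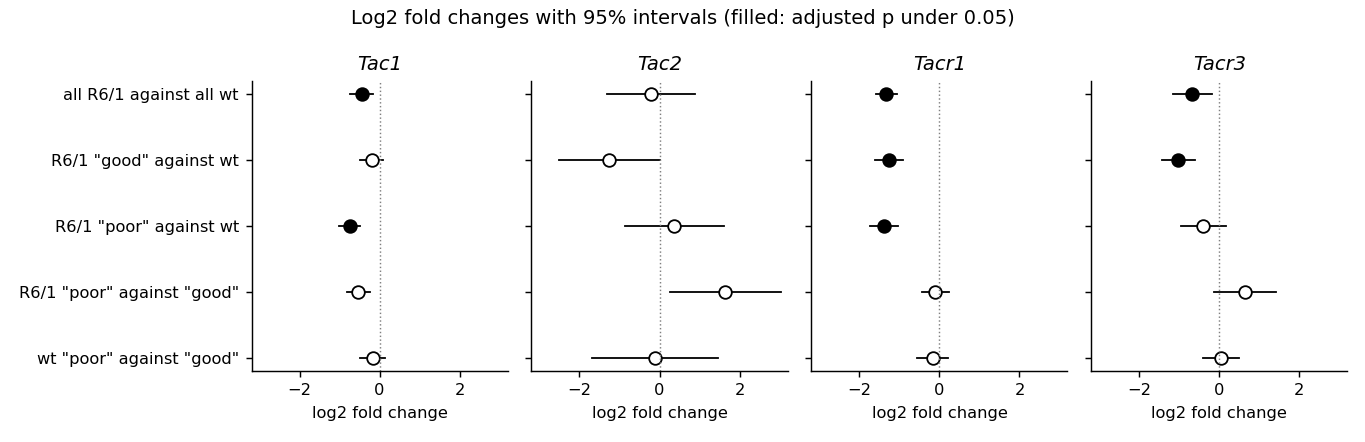
Log2 fold changes of the 4 tachykinin genes in 5 comparisons, with lines for the 95% intervals and filled points for an edgeR adjusted p under 0.05. Tacr1 is at -1.27 and -1.39 in R6/1 “good” and “poor” mice, Tac1 passes the test in the R6/1 “poor” and Tacr3 in the R6/1 “good” mice, and no point of the last 2 comparisons is filled.

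Counted over the set, 3 of the 4 genes were lower in the 8 R6/1 than in the 8 wild-type mice and 0 were higher, where 34.2% of the 19363 genes tested were called in either direction and 17% lower. In R6/1 “good” mice 2 of 4 were lower (Tacr1 and Tacr3), where 24.6% of all genes were called, 12.4% lower and 12.1% higher. In R6/1 “poor” mice 2 of 4 were lower (Tac1 and Tacr1), where 28.5% were called, 14.9% lower and 13.5% higher, a count of 5511 genes that was 3662 without R6/1 “poor” mouse 3. These counts rest on 4 genes and on the same wild-type mice. Between R6/1 “poor” and “good” mice edgeR called 0 members and 0% of all genes, with 3000 genes at an unadjusted p under 0.05, and DESeq2 called 356 genes, Tac1 among them. The edgeR count was 61 without R6/1 “poor” mouse 2 and 99 without mouse 4. For wild-type “poor” against wild-type “good” mice, edgeR called 0 members and 0% of all genes, with 472 genes at an unadjusted p under 0.05, and DESeq2 called 0. For the interaction of genotype and performance edgeR called 0 members and 0% of all genes, with 1118 at an unadjusted p under 0.05, and DESeq2 called 1. The edgeR count was 2 without R6/1 “poor” mouse 2.

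The members did not vary as a block over the mice. Log2 CPM of Tac2 and Tacr3, a peptide precursor and its receptor, had a correlation of 0.82 among the 8 wild-type and 0.84 among the 8 R6/1 mice. Tac1 and Tacr1, the other precursor and receptor, had 0.71 among wild-type and 0.17 among R6/1 mice. Tac1 and Tac2, the 2 precursors, had -0.26 and -0.83. These values describe libraries that also differ in depth and in markers of neighbouring tissue, as given above.

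Enzymes that make peptides from precursors changed in both directions. In the comparison of the genotypes, 2 of 5 were higher and 2 lower by edgeR, with a median of 0.19 against 0.02 over all genes tested, of which 17.2% were higher and 17% lower. Scg5, the chaperone of a prohormone convertase, was higher at 0.57 ± 0.05 (adjusted p = 1.04e-07) and Pam, the enzyme that forms the amide end, at 0.19 ± 0.05 (0.01). The convertase Pcsk2 was lower at -0.34 ± 0.08 (0.00382) and carboxypeptidase E (Cpe), which trims the basic residues, at -0.31 ± 0.05 (0.00018). The convertase Pcsk1 stood at 0.54 ± 0.22 (0.064). In R6/1 “poor” against “good” mice edgeR called 0 of the 5, with Pcsk1 at 0.57 ± 0.21 (unadjusted p = 0.0252, adjusted p = 0.281).

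Of 6 peptidases that can cut tachykinins, 3 were lower and 1 higher, with a median of -0.14, where 17% of all genes were lower and 17.2% higher. Mme, or neprilysin, a main peptidase for substance P, was lower at -0.47 ± 0.14 (edgeR adjusted p = 0.0139), and angiotensin-converting enzyme (Ace), which is dense on striatal output neurons, at -1.03 ± 0.195 (0.000653). The endothelin-converting enzyme Ece1 was lower at -0.28 ± 0.06 (0.00132) and the related Ece2 higher at 0.64 ± 0.12 (0.000398).

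Downstream of the receptors, 5 of 9 genes of the Gq pathway were lower and 1 higher in R6/1 mice, with a median of -0.44 against 0.02 over all genes, of which 17% were lower and 17.2% higher. Itpr1, the calcium release channel opened by inositol trisphosphate, was lower at -1.20 ± 0.145 (edgeR adjusted p = 9.67e-06), and protein kinase C beta (Prkcb) at -0.96 ± 0.12 (8.43e-06). The phospholipases Plcb1 and Plcb3 were lower at -0.73 ± 0.10 (3.59e-05) and -0.44 ± 0.06 (1.65e-05). The G protein subunit Gnaq was higher at 0.19 ± 0.05 (0.00383). Of 6 receptor kinases and arrestins, 2 were lower, Arrb1 at -0.36 ± 0.06 (9.01e-05) and Grk5 at -0.36 ± 0.06 (0.000182), and 0 were higher. The 2 of 6 called compare with 34.2% of all genes. These genes serve many receptors besides those for tachykinins.

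Among 12 other neuropeptide precursors, 6 were lower in R6/1 mice and 0 higher, with a median of -0.83, against 17% and 17.2% of all genes. Penk, Pdyn, Sst and Npy are given above, and the other 2 were Crh and Cartpt, at -1.45 ± 0.45 (edgeR adjusted p = 0.0193) and -1.21 ± 0.455 (0.0495). Of 8 direct-pathway markers 4 were lower, Chrm4 most of all at -1.47 ± 0.13 (2.54e-07), and 0 were higher. The 4 that were not called between the genotypes, Sfxn1, Ebf1, Isl1 and Eya1, stood at -0.17 to 0.33, above Tac1. Of 5 indirect-pathway markers 4 were lower, with a median of -1.66. Both counts stand beside 17% of all genes lower. For R6/1 “good” against wild-type mice, 1 of the 8 direct-pathway markers was called higher and 4 lower, beside 12.1% and 12.4% of all genes. In R6/1 “poor” against “good” mice Penk stood at -0.51 ± 0.12, Pdyn at -0.57 ± 0.16, Drd1 at -0.64 ± 0.16 and Drd2, the dopamine receptor of the indirect pathway, at -0.83 ± 0.20, beside Tac1 at -0.53 ± 0.13, each with an edgeR adjusted p of 0.248.

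**Figure D5:**
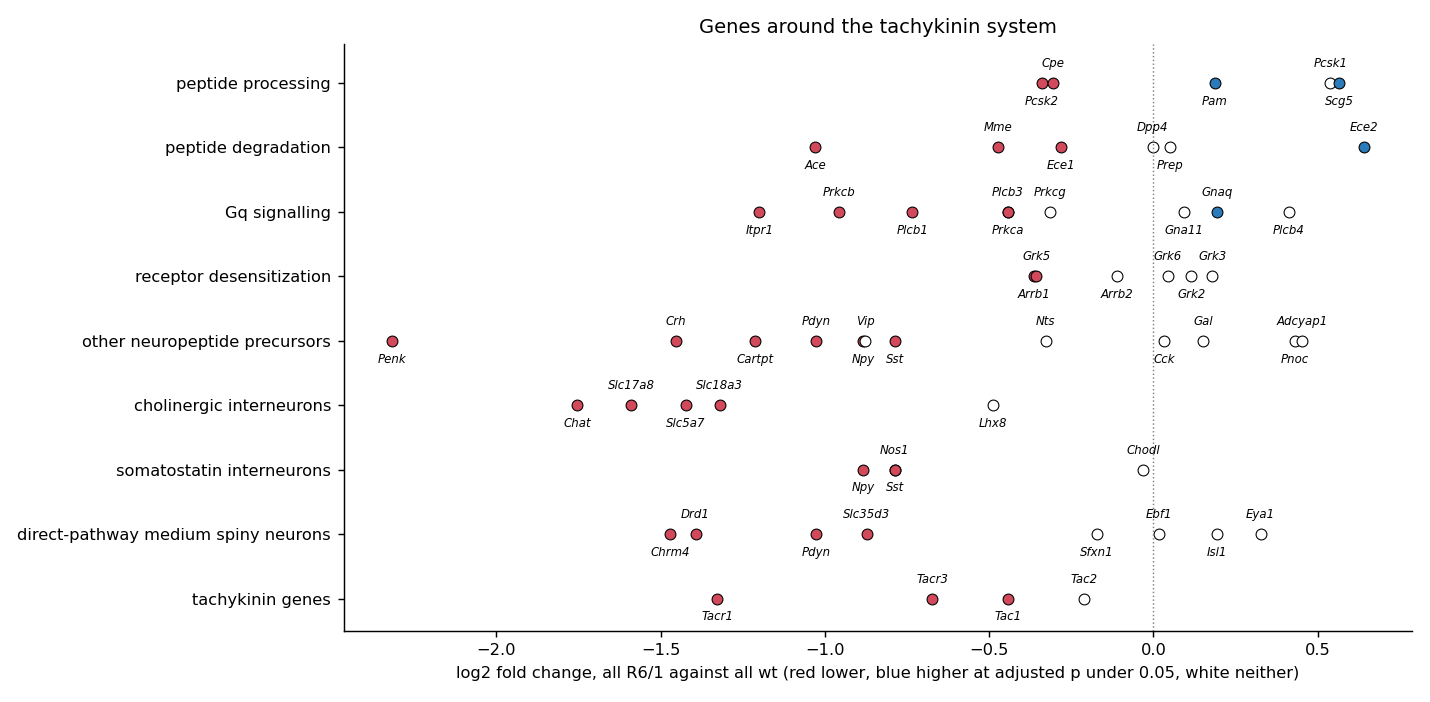
Log2 fold change of the 8 R6/1 against the 8 wild-type mice for the reported genes of 8 lists around the tachykinin system and for the 4 tachykinin genes, red for lower, blue for higher and white for neither at an edgeR adjusted p under 0.05. Tacr1 at -1.33 lies among the cholinergic markers, and Tac1 at -0.44 to the right of Chrm4, Drd1, Pdyn and Penk.

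For each member the 5 genes with the most similar pattern were found by Pearson correlation of log2 CPM over the 16 libraries, among 16415 genes. For Tacr1 they were Itga9 (0.9748), Gpr139 (0.974), Rhbdl3 (0.974), Chat (0.974) and Cacng4 (0.971), and part of this likeness is the gap between the genotypes. Within wild-type and within R6/1 mice, Chat and Tacr1 had 0.81 and 0.82, Gpr139 and Tacr1 0.91 and 0.82, and Itga9 and Tacr1 0.92 and 0.58. For Tac1 they included Kcnj2 (0.930), an inward rectifier potassium channel, Syt6 (0.923), Neu2 (0.921) and Retn (0.921). For Tacr3 they were Ecel1 (0.952), Vat1l (0.942), Abhd3 (0.937), Rbms3 (0.934) and AI606473 (0.915). For Tac2 they were A330074K22Rik (0.937), Parm1 (0.937), the muscarinic receptor Chrm2 (0.922), Itih3 (0.921) and Kcnj5 (0.919). Parm1 and Tac2 had 0.94 within wild-type and 0.96 within R6/1 mice, so for that pair the likeness did not come from the genotypes. With Spearman in place of Pearson correlation, 0 of the 5 genes stayed for Tac1, 3 for Tac2, 1 for Tacr1 and 2 for Tacr3, so the names depend on the measure for all 4 members.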

How the data were processed

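Striatal mRNA of 16 mice was sequenced from stranded libraries. The authors mapped the reads to GRCm38 with TopHat 1.0.1 and deposited raw counts per gene, with CASAVA and Bowtie also among the tools in the submitters' notes. How reads were counted, and on which strand, is not given in the sources used here. Testing was limited to the 19363 of 55450 genes that reached 10 counts in 4 or more libraries. The test was edgeR 4.0.16 in R 4.3.3 by quasi-likelihood (robust, TMM factors, only the groups compared in a fit, Benjamini-Hochberg over all genes tested, threshold 0.05). DESeq2 1.42.0 served as an alternative. The procedure was tested on simulated counts. Exon lengths and peptide-coding sequences came from GENCODE M21, and log2 CPM used a prior count of 2. Ratios and figures were made with Python 3.11.15, numpy 2.4.6 and matplotlib 3.10.9. Libraries held 16155356 to 24897354 counts. No pair of libraries of the same group agreed within sampling noise, and pairs from different groups were not compared in this way. The descriptions of wt “good” mice 1 and 2 carry the same number, the second with a letter, so they may not be independent. Their counts differed by a chi-square of 19.0 per gene, where the pairs of that group ran from 17.2 to 31.6. Each member called between the genotypes was also called without either library.

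The members and the gene lists were chosen with earlier results of these data known. Named genes were the 6 genes of the family, up to 4 genes of each list with the smallest p between the genotypes and up to 2 with the smallest p between R6/1 “poor” and “good” mice, the 5 genes most like each member, and Penk, Pdyn, Drd1 and Drd2. Gnaq, Crh, Cartpt, Kiss1, Trh, Sfxn1, Ebf1, Isl1 and Eya1 were named outside this rule, after their values had been seen, and 2 genes that the rule names are not reported here. Nwd2, Chrna3 and Chrnb4 were also named after their values had been seen. The ratios were also chosen after the data had been seen. The 17 lists held 110 symbols, 102 of them tested. Alternatives were DESeq2, RLE factors, no filter, the replicate block, a joint fit of the 4 groups and wild-type controls matched for performance. Further ones were the set of libraries as a covariate, each set of libraries alone, a prior count of 0.5, Spearman correlation and leaving out each mouse.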

Additional observations from a re-analysis of the deposited data

Results flagged for a closer look

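Of 32 sets of 4 mice examined (each of the members and of the hypothalamic, septal, thalamic and cholinergic marker sums, in each group), 1 held a mouse far from the others: the summed level of 5 thalamic markers in R6/1 “good” mouse 3, at 145 CPM, with the next mouse of the group at 34.4 CPM. That mouse had the most Tac2 of its group, at 4.67 CPM, and the most Tacr3, at 7.54 CPM. Chance alone gives this in about 1 of 20 such sets.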

How the results depend on the processing

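The lower Tacr1 of R6/1 mice kept its direction and its side of the threshold in 24 of 24 alternatives for the genotypes and in 20 of 20 for R6/1 “good” mice, and so did Tacr3 in R6/1 “good” mice in 20 of 20. With no filter on low counts, Tac1 (-0.43) and Tacr3 (-0.66) lost the call between the genotypes. Libraries 1 to 8 alone called 4368 genes, with Tac1 at -0.19 and Tacr3 at -0.60, neither past the threshold, and libraries 9 to 16 alone called 3401, with Tac2 turned to 0.22 and Tacr3 at -0.56, not past it. These fits hold fewer mice. Leaving out each mouse moved Tac2 from -0.70 to 0.11 and Tacr3 from -0.81 to -0.57.

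Against wild-type mice of the same performance, R6/1 “good” mice had 2698 genes called. For R6/1 “poor” against wild-type mice, libraries 1 to 8, with 1 R6/1 “poor” mouse assumed to vary like the others, called 445 genes and left Tac1 at -0.56 and Tacr1 at -1.43 short of the threshold, and libraries 9 to 16 called 3401. Leaving out each mouse gave 3662 to 5583 genes there and moved Tac2 from -0.21 to 0.70.

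Between the R6/1 groups, DESeq2 called 356 genes and Tac1 (-0.53), no filter gave 28 genes, and leaving out each mouse gave 0 to 99 genes and Tacr1 from -0.20 to 0.0037, turned by leaving out R6/1 “good” mouse 4 or R6/1 “poor” mouse 4. The replicate block gave 96 genes, with Tac1 at -0.52 (edgeR adjusted p = 0.0509). Same-numbered mice did not deviate together more than others (correlations of -0.346 to 0.233, median 0.0117 over 24 pairs, against 0.0071 over 72 other pairs). These values cannot exclude a shared litter or cohort, which the labels do not give. Between the wild-type groups no call was made. The sign turned for Tac2 under the replicate block (0.24) and Tac1 in libraries 1 to 8 (0.17). It also turned for Tacr3 in libraries 9 to 16 (-0.11) and with the set of libraries as a covariate (-0.051). Leaving out each mouse gave -0.43 to 0.75 for Tac2 and -0.13 to 0.23 for Tacr3. For the interaction, DESeq2 called 1 gene, Tacr1 was -0.11 in libraries 1 to 8, and leaving out each mouse gave 0 to 2 genes and Tacr1 from -0.063 to 0.21. The cause of these changes was not tested.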
